A study of Danio rerio and Oryzias latipes with 22 samples.

Results

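Mural cells, the pericytes and vascular smooth muscle cells that wrap blood vessels, were sought in single-cell RNA sequencing of zebrafish ventricles by the genes they transcribe. A cell was kept if it had at least 1 unique molecular identifier (UMI, a tag that marks 1 captured RNA molecule) in at least 3 of the 5 markers pdgfrb, notch3, rgs5a, cspg4 and kcne4, and no UMI of the epicardial gene tcf21. It also had to show at least 200 genes and to have at most 15% of its UMIs in gene symbols that start with mt-. The rule found 483 cells among 38473 zebrafish cells that passed the gene and mt- limits, of 85801 zebrafish barcodes in the files and 126955 barcodes in the whole series. All fish were wild-type Tübingen adults, given as 6 to 18 months old unless otherwise stated. Injured fish had received a cryoinjury, a freezing of the ventricle apex with a cooled probe, and whole ventricles were dissociated with an enzyme 3 or 14 days post-injury (d.p.i.). There were 4 uninjured samples, with no cryoinjury, 3 samples of 3 d.p.i. and 6 samples of 14 d.p.i. The labels do not say how many ventricles went into a sample or whether samples came from separate animals, so p-values measure the spread between these samples. The series also holds medaka ventricles, in which 4 of 33999 cells met the marker and gene-number parts of the rule by symbol. Medaka gene lists hold 0 mt- symbols, so the mt- limit did not act there. A medaka library had 0 to 4 UMIs of kcne4 and 1 to 32 of cspg4 in passing cells. The count thus cannot tell how many mural cells medaka ventricles hold.

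As background, mural cells sit in the basement membrane on the outside of endothelial tubes. Endothelial cells secrete platelet-derived growth factor B, which recruits and maintains mural cells through the receptor encoded by pdgfrb, and Notch ligands on the endothelium act on the mural receptor encoded by notch3. Pericytes line capillaries and carry regulators of G-protein signalling such as rgs5a and an ATP-sensitive potassium channel, while smooth muscle cells around larger vessels carry more of the contractile proteins acta2, tagln and myh11a. In the zebrafish heart, mural cells of the coronary vessels are known to arise from the epicardium, the outer cell layer that is marked by tcf21 and tbx18.

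The cells meeting the rule were spread over every sample. The 4 uninjured samples held 5, 13, 14 and 21 of them, the 3 samples at 3 d.p.i. held 38, 23 and 30, and the 6 samples at 14 d.p.i. held 63, 74, 71, 75, 45 and 11. A sample held 11107200 to 75811400 UMIs in all, and mitochondrial entries made up 24.8% to 75.6% of them. The UMIs of the cells meeting the rule, outside mitochondrial entries, came to 47894 to 2215160 per sample, with the lowest totals, 47894 and 65031, in uninjured replicates 1 and 2 and at least 202799 in each of the other 11 samples. Uninjured replicates 1 and 2 were counted against an earlier gene list than the other 11 samples. Counts of called genes that change without them are given with both values. Of 38271 distinct barcode sequences among cells that passed, 202 occurred in more than 1 zebrafish library, and 0 of these belonged to cells meeting the rule.

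The cells were selected on their UMIs of the 5 marker genes and of tcf21, so the levels of these genes are given only as a description. A UMI of pdgfrb, the platelet-derived growth factor receptor, was found in 460 of the 483 cells (95.2%), of notch3 in 433 (89.6%), of rgs5a in 343 (71.0%), of kcne4, a potassium channel subunit, in 257 (53.2%) and of cspg4, the NG2 proteoglycan, in 149 (30.8%). The commonest sets were pdgfrb, notch3 and rgs5a alone in 158 cells, the same 3 with kcne4 in 86 cells, and pdgfrb, notch3 and kcne4 in 64 cells. Exactly 3 markers were present in 327 cells, 4 in 119 and all 5 in 37. Just outside the rule, 807 cells had exactly 2 markers and no tcf21, and 345 had 3 or more markers together with tcf21. Which markers qualified a cell differed by time point: rgs5a was present in 66.0% of the uninjured, 28.6% of the 3 d.p.i. and 83.2% of the 14 d.p.i. cells, against 67.9%, 90.1% and 41.0% for kcne4 in the same order.

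Levels were taken from UMIs summed over the cells of a class in each sample and are given as CPM, the UMIs of a gene per 1000000 UMIs outside mitochondrial entries. In the cells meeting the rule rgs5a had 2170, 2232, 881 and 538 CPM in uninjured samples, 88.5, 516 and 82.4 CPM in those of 3 d.p.i., and a lowest, median and highest level of 562, 1183 and 3247 CPM among the 6 samples of 14 d.p.i. The ranges in uninjured and 14 d.p.i. samples overlapped, and every 3 d.p.i. sample lay below them. Uninjured samples had a pdgfrb level of 295, 341, 351 and 370 CPM, those of 3 d.p.i. had 82.7, 298 and 50.4 CPM, and those of 14 d.p.i. had 172, 623 and 903 CPM (lowest, median, highest). For notch3 the uninjured samples gave 190, 372, 168 and 117 CPM, the 3 d.p.i. samples gave 87.2, 242 and 68.5 CPM, and the 14 d.p.i. samples gave 102, 458 and 683 CPM (lowest, median, highest). For all 3 genes, 3 d.p.i. replicates 1 and 3 were the lowest of the 13 samples, while replicate 2 lay within the range of the other samples for pdgfrb and notch3.

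The cells meeting the rule were not uniform in how strongly they carried the markers. By the construction of the rule, a cell with many UMIs passed with 3 marker UMIs as readily as a cell with few, so the part of a cell's RNA that the markers took was counted as well. Cells with at least 10 marker UMIs per 10000 UMIs outside mitochondrial entries, a limit chosen after the values were seen, are called marker-dense here. They were 35 of 53 cells in uninjured samples (66.0%), 24 of 91 in 3 d.p.i. samples (26.4%) and 258 of 339 in those of 14 d.p.i. (76.1%), or 317 of 483 in all (65.6%). Near this limit, 134 cells lay between 5 and 20 marker UMIs per 10000, so the class is a range and not a type. Marker-dense cells had a median of 4100 UMIs outside mitochondrial entries, against 26628 in the others. By time point, all cells meeting the rule had medians of 11124 such UMIs in uninjured samples, 35635 in 3 d.p.i. samples and 5901 in those of 14 d.p.i.

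Many of these cells also carried endothelial transcripts. At least 3 of the endothelial genes kdrl, fli1a, cdh5, tie1 and egfl7 had a UMI in 23 of 53 cells in uninjured samples (43.4%), 61 of 91 in 3 d.p.i. samples (67.0%) and 109 of 339 in those of 14 d.p.i. (32.2%). These 193 cells had a median of 22352 UMIs outside mitochondrial entries, against 3238 in the other 290. A UMI of cdh5, the endothelial cadherin, was found in 40.1% of marker-dense cells, 47.0% of the remaining cells meeting the rule, 98.5% of endothelial cells and 4.31% of epicardial cells. Summed over 16 endothelial marker genes, the level in the cells meeting the rule ran from 3100 to 4847 CPM in uninjured samples (median 3801), from 1692 to 2360 in 3 d.p.i. samples (median 2297) and from 1666 to 5518 in those of 14 d.p.i. (median 4483). In endothelial cells the same sum had medians of 4535, 3201 and 4011 CPM in that order of groups, and in epicardial cells 319, 207 and 249 CPM. A doublet caller (Scrublet) marked 114 of the 38473 cells and 1 of the 483, a rate at which it has not worked, so droplets holding a mural and an endothelial cell together were not removed. Whether such droplets, free RNA or cells with both programmes gave the endothelial UMIs was not tested. The cells are therefore called mural-marker cells below.

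**Figure D1:**
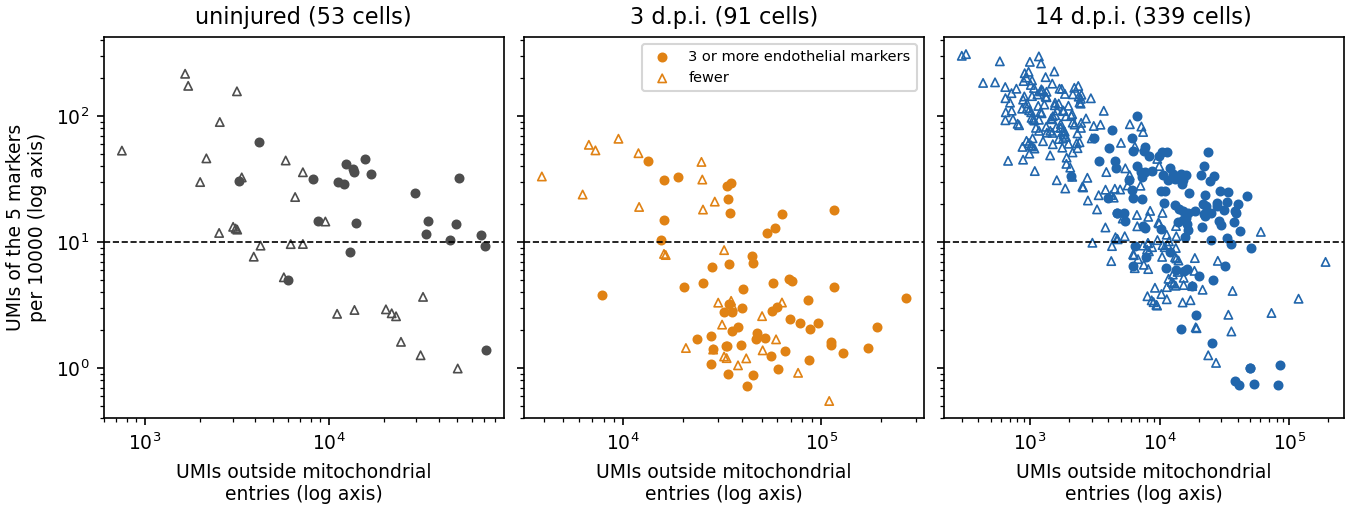
Marker density against depth for each mural-marker cell, in 3 panels (uninjured, 3 d.p.i., 14 d.p.i.). The x axis is the UMIs of the cell outside mitochondrial entries and the y axis its UMIs of the 5 markers per 10000 such UMIs, both on log axes; filled circles have a UMI in 3 or more of 5 endothelial markers, open triangles in fewer, and the dashed line marks 10 per 10000. Of the 91 cells at 3 d.p.i. 24 lie on or above the line, against 35 of the 53 uninjured cells.

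Some genes the rule did not use were found more often in the marker-dense cells than in the others. The genes kcnj8 and abcc9 encode the pore and regulatory subunits of the ATP-sensitive potassium channel of pericytes. They were chosen after their values were seen, and the shares below are pooled over the cells of all samples. The pericyte list as a whole is not given for marker-dense against other cells. In a different comparison, of all mural-marker with endothelial cells, 6 of 11 pericyte genes tested were called higher. The genes foxc1a, foxc1b and epas1b were called lower there. A kcnj8 UMI was found in 118 of 317 marker-dense cells (37.2%) and 3 of the other 166 (1.81%), against 0.307% of endothelial and 2.20% of epicardial cells. For abcc9 the shares were 34.7% of marker-dense cells, 4.82% of the others, 0.939% of endothelial and 2.96% of epicardial cells. The marker-dense cells had the higher shares at less than the others' depth. In CPM, averaged over samples, kcnj8 stood at 62.4 in marker-dense cells, 0.716 in the other mural-marker cells, 0.584 in endothelial cells and 3.39 in epicardial cells. These values describe a class cut on the data, and no test was run on them.

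Mural-marker cells were then compared with endothelial cells within each of the 13 samples. Endothelial cells were the 11075 passing cells outside the rule with a UMI in at least 3 of the 5 endothelial genes above and no tcf21. This class was not split into vessel cells, which mural cells wrap, and endocardium, the inner lining of the heart. The test was edgeR's quasi-likelihood test on summed counts with the sample as a block, and p-values were adjusted by Benjamini-Hochberg over all 8670 genes tested. The genes that either class was chosen by were left out. At an adjusted p under 0.05, 2325 genes differed (26.8% of those tested), 934 of them higher in mural-marker cells (10.8%) and 1391 lower (16%). The median difference over all genes was −0.09 on the log2 scale. Of 10 further endothelial genes tested, 4 were higher in mural-marker cells (pecam1, plvapa, plvapb and sox18). Another 5 were lower (tek, kdr, flt1, esama and clec14a). How much of the calls came from differences between vessel cells and endocardium was not tested. Without uninjured replicates 1 and 2 the test called 2452 genes, 51.1% of them higher, against 40.2% with those replicates.

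The largest increases over endothelial cells included col18a1b, tpm1, tagln and rgs4. The collagen XVIII gene col18a1b averaged 176 ± 131 CPM in mural-marker cells and 1.04 ± 0.98 CPM in endothelial cells (SD, n = 13 samples each), a log2 difference of 7.01 ± 0.35 (SE, edgeR adjusted p = 5.96e-11). The tropomyosin gene tpm1 averaged 423 ± 286 CPM against 4.67 ± 2.23 CPM in endothelial cells, a 64.9-fold difference, and tagln, which encodes the smooth muscle protein transgelin, 688 ± 673 against 7.86 ± 5.94 CPM, a 53.2-fold difference (adjusted p = 7.79e-13 and 2.1e-05). Both were higher in every sample. The G-protein signalling regulator rgs4 averaged 104 ± 75.7 CPM and 1.11 ± 0.566 CPM in endothelial cells, a 60.9-fold difference (adjusted p = 8.34e-10). Further genes in this group were angptl1a, an angiopoietin-like secreted protein (log2 6.06), the matrix gene postnb (5.97), the sodium pump subunit atp1a1b (5.80), the transcription factor tbx18 (5.70), the pericyte surface protein cd248a (5.18), c1qtnf5 (4.96), TCIM (4.67) and ndufa4l2a (4.64), a homologue of a mitochondrial respiratory subunit that marks pericytes in mammals. The 12 genes named here were the largest of 132 that were called, moved the same way in all 13 samples and averaged at least 50 CPM in mural-marker cells, leaving aside clone names.

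Not all of these genes set mural-marker cells apart from epicardial cells. The level of tbx18 averaged 103 CPM in mural-marker cells (83.2 in the marker-dense ones, 155 in the others) and 658 CPM in epicardial cells, that of angptl1a 88.5 and 213 CPM, that of c1qtnf5 101 and 268 CPM, and that of postnb 515 and 1129 CPM. By contrast cd248a averaged 154 CPM in marker-dense cells, 27.4 in the others and 13.6 in epicardial cells, and ndufa4l2a 377, 12.1 and 8.28 CPM. Summed over 12 epicardial marker genes, mural-marker cells had medians of 963 CPM in uninjured samples, 1543 in 3 d.p.i. samples and 820 in those of 14 d.p.i. The same sum had medians of 1252, 1410 and 1163 CPM in endothelial cells and of 1374, 966 and 1879 CPM in epicardial cells, in the same order of time points. The list as summed thus did not separate the classes at 3 d.p.i., where epicardial cells were lowest. In uninjured samples it put endothelial cells close to epicardial cells. It includes tbx18, by which the epicardial cells were chosen. It also holds aldh1a2, gata4, gata5 and gata6, which were called lower in mural-marker than in endothelial cells. The part of epicardial RNA in the levels above was not tested.

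Genes lower in mural-marker than in endothelial cells numbered 215 under the same conditions, and the 6 largest decreases follow. The serotonin transporter gene slc6a4a averaged 181 ± 233 CPM in mural-marker cells and 1833 ± 923 CPM in endothelial cells (log2 −4.38 ± 0.76, adjusted p = 0.000701). The proteoglycan gene spock3 averaged 553 ± 441 and 6201 ± 2107 CPM, and the coagulation factor gene f8 912 ± 1113 and 5747 ± 2036 CPM in the same order of classes. Differences of the same kind were found for ptger4a, a prostaglandin receptor (log2 −3.99), bmp10, a growth factor of the heart wall (−3.97), and creb3l3b (−3.89). Each was lower in all 13 samples.

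The pericyte and smooth muscle gene lists had more members called higher than lower against endothelial cells. Of all genes tested there, 10.8% were higher and 16% lower. Of 11 pericyte genes tested, 6 were higher (rgs5b, rgs4, ndufa4l2a, mcamb, tbx2b and epas1a) and 3 lower (foxc1a, foxc1b and epas1b), with a median log2 difference of 1.62 against −0.09 over all genes. The adhesion molecule gene mcamb averaged 518 ± 299 CPM in mural-marker and 161 ± 58.6 CPM in endothelial cells, and the transcription factor tbx2b ran from 17.9 to 258 CPM against 3.30 to 16.8 CPM. Of 19 smooth muscle genes tested, 10 were higher (acta2, tagln, myh11a, myl9a, mylka, tpm1, cald1a, srfa, csrp1a and cavin1b) and 2 lower (myl9b and smtnl), with a median of 0.79. Smooth muscle actin, acta2, averaged 218 ± 302 CPM against 3.62 ± 8.94 CPM and ran from 0 to 1029 CPM among the mural-marker samples. The smooth muscle myosin gene myh11a averaged 338 CPM in marker-dense cells, 43.1 in the other mural-marker cells and 27.9 in endothelial cells. Relative to its mean, the actin level thus varied more between samples than that of mcamb, while the SDs were alike.

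**Figure D2:**
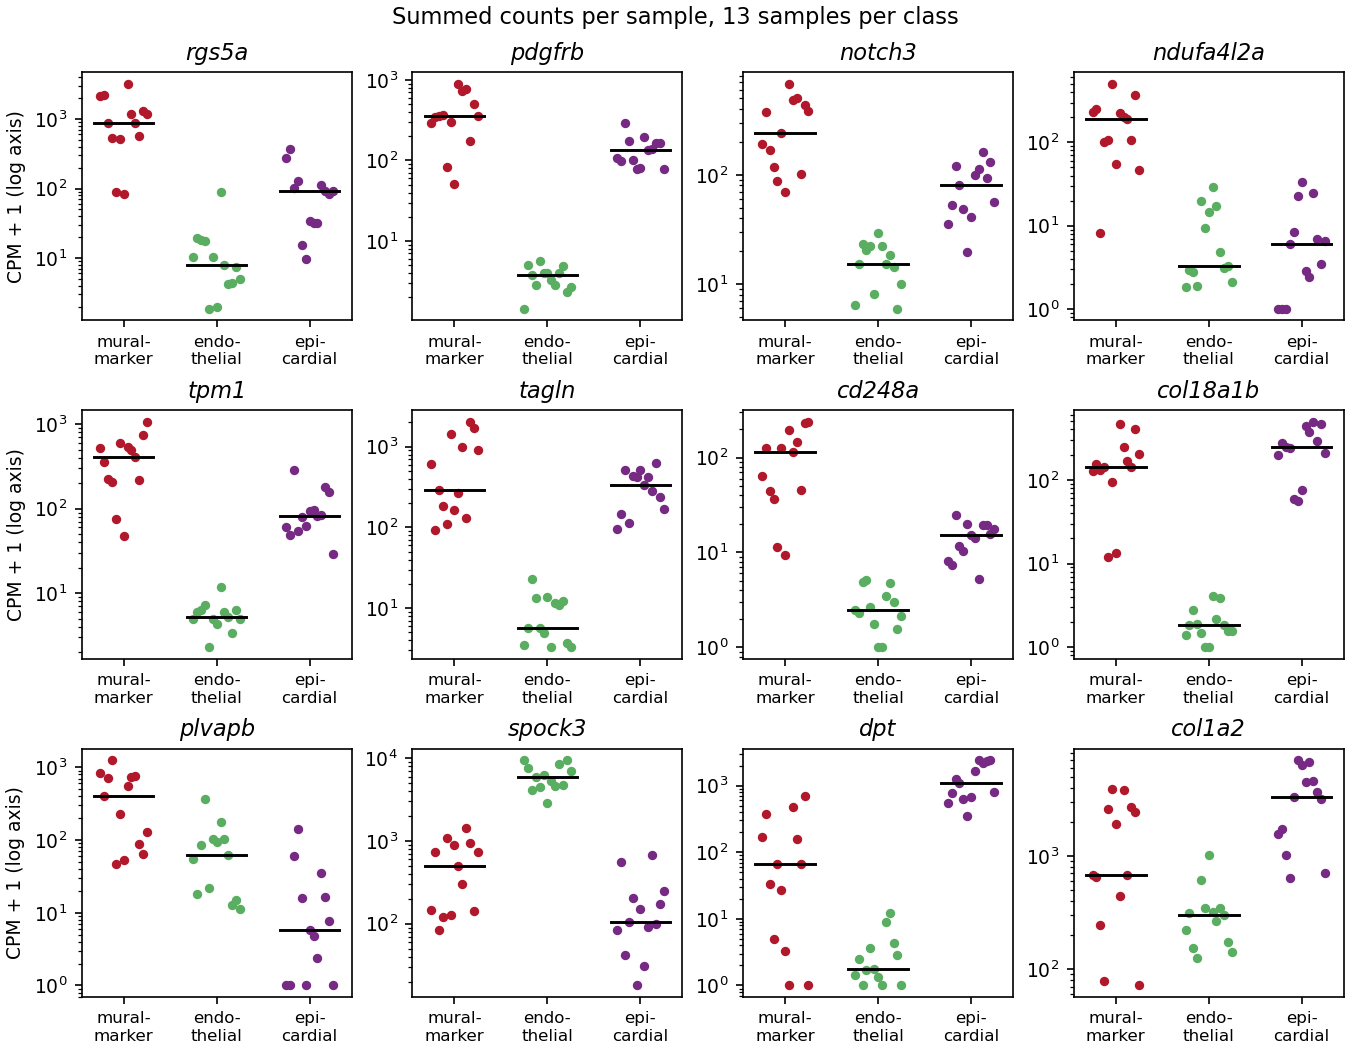
Levels of 12 genes in mural-marker, endothelial and epicardial cells, each point 1 of 13 samples and each bar the median of the 13. The y axes are CPM + 1 on a log scale; rgs5a, pdgfrb and notch3 are rule genes and are shown as a description. All 13 samples have tpm1 at 46.3 CPM or more in mural-marker cells and at 10.7 CPM or less in endothelial cells, while plvapb averages 452 CPM in mural-marker and 86.0 CPM in endothelial cells and col1a2 is highest in epicardial cells.

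Against epicardial cells, mural-marker cells were higher in vascular genes and lower in matrix genes. The 2229 epicardial cells had a UMI of both tcf21 and tbx18, and those genes and the 5 markers were left out of the test. With the same edgeR test, 2048 of 5904 genes differed (34.7%), 968 higher (16.4%) and 1080 lower (18.3%), and the median over all genes was 0.00. Without uninjured replicates 1 and 2, 2331 of 7585 genes were called, 1178 higher and 1153 lower. The 12 largest increases included plvapa and plvapb, which build the diaphragms of vessel fenestrae (log2 4.83 and 4.38), the water channel gene aqp8a.1 (4.73), rca2.2 (4.45), the tight junction gene cldn5b (4.36), the transporter genes abcc2 (4.09) and abcg2a (3.84), bcl6b (4.02), cdh5 (3.88), gig2j (3.86) and ecscr (3.79). The single pericyte gene among them was ndufa4l2a, at 183 ± 139 CPM in mural-marker cells and 8.28 ± 10.7 CPM in epicardial cells (log2 4.19 ± 0.55, adjusted p = 3.82e-05). All 15 endothelial list genes tested were higher, with a median of 3.25.

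Endothelial genes had lower levels in the mural-marker cells that were chosen for few endothelial markers. In the 290 mural-marker cells with fewer than 3 of the 5 endothelial genes, cdh5 averaged 43.4 CPM, plvapb 15.8, plvapa 4.36, cldn5b 21.2 and aqp8a.1 315 CPM, against 821, 452, 237, 285 and 3507 CPM over all mural-marker cells. In the same 290 cells ndufa4l2a averaged 270 CPM, rgs4 210, tpm1 584 and kcnj8 63.2 CPM. These mural genes were at or above their level in the whole class. Taking out cells with endothelial UMIs can by itself raise the CPM of other genes. These are descriptions of a trimmed class, since cdh5 was among the genes that trimmed it and its lower level was fixed by the cut. The source of the endothelial RNA was not tested.

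The genes lower than in epicardial cells included secreted and matrix genes. The alcohol dehydrogenase gene adh8a had a median of 0 CPM in mural-marker samples (highest 190) and ran from 15.5 to 975 CPM in epicardial cells, with a median of 419 (log2 −5.59 ± 0.77, adjusted p = 6.28e-05), and dermatopontin, dpt, 159 ± 220 against 1317 ± 781 CPM. The complement gene c4 averaged 125 ± 197 and 1035 ± 627 CPM, the secreted inhibitor gene sostdc1a 85.1 ± 125 and 677 ± 378 CPM, s100a10a 7.82 ± 19.9 and 131 ± 141 CPM, and the filamin gene flnb 10.0 ± 15.5 and 96.1 ± 48.3 CPM. Of 29 fibrillar collagen and matrix genes tested, 25 were lower and 0 higher than in epicardial cells (median log2 −1.71), while 16 of 22 were higher and 1 lower than in endothelial cells (median 1.55). Collagen I, measured by col1a2, averaged 774 CPM in marker-dense cells, 2292 in the other mural-marker cells and 3457 in epicardial cells. Pericyte genes went the other way, with 6 of 10 higher (rgs4, ndufa4l2a, mcamb, tbx2b, epas1a and epas1b) and 0 lower than in epicardial cells (median 1.37). Of these, epas1b was called lower than in endothelial cells, and the part of endothelial RNA in the 6 increases was not tested. Of all genes tested, 16.4% were higher and 18.3% lower against epicardial cells, and 10.8% higher and 16% lower against endothelial cells.

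Basement membrane genes, which encode the sheet that mural and endothelial cells share, were mostly called higher against endothelial and lower against epicardial cells. Of 12 tested against endothelial cells, 8 were higher (col4a1, col4a2, lama4, lama5, lamb1b, lamc1, nid1a and sparc) and 1 lower (agrn). Against epicardial cells 1 of 15 was higher, col4a2, and 10 were lower. Of all genes tested, 10.8% were higher and 16% lower against endothelial cells, and 16.4% higher and 18.3% lower against epicardial cells. Collagen IV, measured by col4a1, averaged 1228 ± 751 CPM in mural-marker cells, of which 1701 CPM in the marker-dense ones and 636 CPM in the others, against 500 ± 173 CPM in endothelial and 744 ± 390 CPM in epicardial cells. The matrix protein gene sparc averaged 1668 ± 1016, 292 ± 252 and 3716 ± 1653 CPM in mural-marker, endothelial and epicardial cells.

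In the platelet-derived growth factor list, ligand genes and the receptor-like gene pdgfrl were called higher than in endothelial cells. Of 5 genes tested against endothelial cells, 4 were higher (pdgfaa, pdgfba, pdgfbb and pdgfrl) and 0 lower, against 10.8% and 16% of all genes tested. Against epicardial cells 2 of 5 were higher (pdgfba and pdgfbb) and 2 lower (pdgfra and pdgfrl), against 16.4% and 18.3% of all genes. The ligand gene pdgfbb averaged 232 ± 223 CPM in mural-marker and 43.8 ± 77.8 CPM in endothelial cells (log2 2.41, adjusted p = 0.000487), and pdgfba 74.5 ± 51.9 against 18.6 ± 19.3 CPM. As background, endothelial cells are the known source of these ligands. In the 290 cells with fewer than 3 endothelial markers, pdgfbb averaged 34.1 CPM and pdgfba 9.31 CPM, both below the endothelial mean. Whether coronary endothelial RNA in the remaining cells carried the ligands was not tested.

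Notch genes apart from notch3 were mostly lower than in endothelial cells. Of 16 tested, 9 were lower (notch1a, notch1b, dll4, her6, her9, nrarpa, nrarpb, lfng and rbpjb) and 3 higher, the ligands jag1b, jag2a and jag2b. Of all genes tested, 16% were lower and 10.8% higher. The receptor gene notch1b averaged 238 ± 121 CPM in mural-marker cells and 776 ± 303 CPM in endothelial cells (log2 −1.97). The ligand gene dll4 averaged 193 ± 130 and 220 ± 93.8 CPM (log2 −0.58, adjusted p = 0.0349), but 7.43 CPM in the cells with fewer than 3 endothelial markers. Against epicardial cells 9 of 13 Notch genes were higher and 2 lower, against 16.4% and 18.3% of all genes tested.

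Among 18 growth factor and chemokine genes tested against endothelial cells, 5 were higher (angpt1, angpt2a, cxcl12a, cxcl12b and ccl25b) and 5 lower (vegfab, aldh1a2, bmp6, tgfb3 and cntf). The median log2 difference was −0.27 against −0.09 over all genes, of which 10.8% were higher and 16% lower. The angiopoietin gene angpt1 encodes the mural ligand of the endothelial Tie2 receptor. The chemokine gene cxcl12b averaged 886 ± 1021 CPM in mural-marker cells, 65.1 ± 80.3 CPM in endothelial cells and 115 ± 163 CPM in epicardial cells (log2 3.86 and 3.21, adjusted p = 0.000341 and 0.0197). Its mural-marker level had a mean of 340 CPM in uninjured samples, 253 in 3 d.p.i. samples and 1566 in those of 14 d.p.i., and the 14 d.p.i. difference from uninjured samples did not pass the test (log2 2.09, adjusted p = 0.4).

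The share of mural-marker cells among cells that passed was higher at 14 d.p.i. than in uninjured samples. It was 0.386%, 0.591%, 0.493% and 0.633% in the uninjured samples, 1.47%, 0.817% and 0.963% in the 3 d.p.i. samples, and 2.42%, 1.64%, 1.36%, 1.73%, 1.88% and 0.886% in the 14 d.p.i. samples. Every injured sample lay above every uninjured one. The share averaged 1.65% ± 0.514 (SD, n = 6) at 14 d.p.i. and 0.526% ± 0.110 (n = 4) in uninjured samples, a difference of 1.13 percentage points (two-sided exact permutation p = 0.00952, adjusted over 3 contrasts 0.0286). At 3 d.p.i. it averaged 1.08% ± 0.343 (n = 3), 0.558 points above uninjured, with an exact permutation p of 0.0571, the smallest that 3 against 4 samples can give. The 14 and 3 d.p.i. samples differed by 0.569 points (exact permutation p = 0.143).

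These shares depended on depth and on the other cells counted. With each cell thinned to 1000 UMIs, which left 9261, 5095 and 17910 cells in uninjured samples, in 3 d.p.i. samples and in those of 14 d.p.i., the share averaged 0.105% in uninjured samples, 0.130% in 3 d.p.i. samples and 0.607% in those of 14 d.p.i. The 14 d.p.i. samples were then higher than the 3 d.p.i. samples (difference 0.477 points, exact permutation adjusted p = 0.0357), and the mean at 3 d.p.i. lay near that of uninjured samples. Left in the count of cells, blood cells also moved the value: without them the share averaged 0.580% in uninjured samples, 2.08% in 3 d.p.i. samples and 1.86% in those of 14 d.p.i. Marker-dense cells alone made up 0.364%, 0.285% and 1.29% in that order. The 14 d.p.i. call also needed all 4 uninjured samples, since with any of them left out the adjusted p was 0.0714, set by the smallest p of 0.0238 that 6 against 3 samples can give. Counting cells with 2 or more markers, the mean was 2.44% in uninjured samples, 3.66% in 3 d.p.i. samples and 3.45% in those of 14 d.p.i., and counting those with 4 or more it was 0.245%, 0.327% and 0.515%, with neither 14 d.p.i. difference from uninjured samples past the threshold. A share does not tell more mural cells from fewer other cells or from a change in how readily they were released from the tissue.

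**Figure D3:**
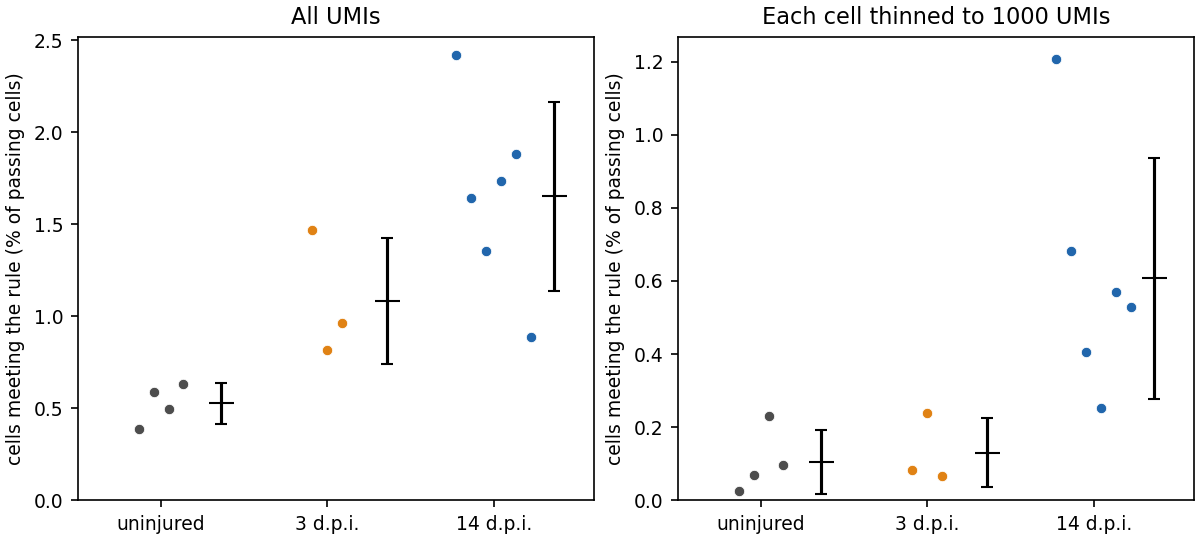
Share of mural-marker cells among cells that passed, for uninjured, 3 d.p.i. and 14 d.p.i. samples, each point 1 sample, with the mean and SD beside the points. Left, all UMIs; right, each cell thinned to 1000 UMIs, on a y axis of its own scale; the means are 0.526%, 1.08% and 1.65% on the left and 0.105%, 0.130% and 0.607% on the right.

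Gene levels in mural-marker cells were then compared between time points, in 1 edgeR fit of the summed counts of all 13 samples over 6417 genes. Summed counts cannot tell a change in each cell from a change in which cells met the rule. The 3 d.p.i. cells in particular were fewer marker-dense (26.4%, against 66.0% of uninjured and 76.1% of 14 d.p.i. cells). By sample they were 6 of 38, 13 of 23 and 5 of 30 cells at 3 d.p.i. Sums also weight cells by their UMIs, so marker-dense cells counted for less than these shares. Their median UMIs at 3 d.p.i. were 21937, against 42032 in the others. In 3 d.p.i. replicate 3, 1 cell below the marker-dense limit held 265792 of 2215164 UMIs. Single cells also weighed heavily at the other time points. In uninjured replicate 3, 1 cell below the limit held 71572 of 286606 UMIs. The largest cell held 13826 of 47894 UMIs in uninjured replicate 1 and 50897 of 202799 in 14 d.p.i. replicate 6. For some of the genes, levels in marker-dense cells are therefore given beside the results without a test. Where none are given, as for col4a2, aldh1a2, dll4 and kdrl, the part of this shift in the difference was not tested. Between 14 d.p.i. and uninjured samples 3 genes differed (0.0468% of those tested), all lower at 14 d.p.i., and 766 had an unadjusted p under 0.05. DESeq2 called 112 genes in the same contrast, 62 higher and 50 lower.

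The 3 genes lower at 14 d.p.i. were fosab, btg2 and hmgb1a. The immediate-early transcription factor gene fosab had 70.8, 125 and 218 CPM (lowest, median, highest) at 14 d.p.i., against 3624, 2341, 828 and 930 CPM in uninjured samples. The groups did not overlap, as for 3.57% of the genes tested, and the log2 difference was −3.75 ± 0.52 (13.4-fold, edgeR adjusted p = 0.0145). It was as large in marker-dense cells, at 60.8 to 250 CPM at 14 d.p.i. and 1298 to 4219 CPM in uninjured samples, and endothelial cells had means of 156 and 1507 CPM. The call was lost without 14 d.p.i. replicate 3, and the log2 difference lay between −4.08 and −2.93 over the alternatives, with an adjusted p of up to 0.101. The antiproliferative gene btg2, also an early-response gene, had 89.6, 122 and 210 CPM (lowest, median, highest) at 14 d.p.i. against 1264, 961, 645 and 415 CPM (log2 −2.50 ± 0.42, adjusted p = 0.0405), and its call was lost in 11 of 22 alternatives. The chromatin protein gene hmgb1a had 208, 354 and 404 CPM at 14 d.p.i. against 948, 837, 1336 and 1229 CPM (log2 −1.79 ± 0.28, adjusted p = 0.0279), and its call was lost without uninjured replicate 3 or 4 or 14 d.p.i. replicate 2, 3 or 6. All 3 calls were also lost with the replicate number as a block, at adjusted p of 0.101 for fosab and 0.0776 for both btg2 and hmgb1a.

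None of the other gene lists had a gene called at 14 d.p.i. against uninjured samples. Of 27 immediate-early genes tested, 2 were lower, fosab and btg2, with a median log2 difference of −1.82 against 0.13 over all genes. The pericyte list had 0 of 14 called and a median of 0.61, and the smooth muscle list 0 of 21 and a median of 1.33. The cardiomyocyte list had 0 of 12 called and a median of 4.28. A gene without a call is not thereby shown to be unchanged. As background, immediate-early genes are those switched on within minutes of a stimulus, before new protein is made.

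At 3 d.p.i. 821 genes differed from uninjured samples (12.8%), 537 higher (8.37%) and 284 lower (4.43%). Without uninjured replicates 1 and 2, 720 genes were called, 347 higher and 373 lower. Those 2 samples had the lowest summed UMIs of mural-marker cells and were counted against the earlier gene list. The higher genes were 65.4% of the calls, against 59.9% with RLE size factors, 58.6% without uninjured replicate 1 alone and 58.5% without uninjured replicate 2 alone, and what moved the split was not tested. The count fell to 357, 249, 313 and 271 without uninjured replicate 3, uninjured replicate 4, 3 d.p.i. replicate 1 and 3 d.p.i. replicate 3 in turn. Of 6417 genes, 27.2% did not overlap between the 3 d.p.i. and the uninjured samples.

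The genes with the smallest adjusted p that were higher at 3 d.p.i. included txn and flna. Thioredoxin, a redox protein encoded by txn, had 3324, 1780 and 1918 CPM at 3 d.p.i. and 42.1, 77.5, 35.8 and 54.8 CPM in uninjured samples (log2 5.49 ± 0.74, a 45.0-fold difference, adjusted p = 0.00328). In marker-dense cells it had 1349, 2186 and 3627 CPM at 3 d.p.i. and 49.6 to 105 CPM in uninjured samples. The filamin gene flna, an actin cross-linker, had 339, 377 and 594 CPM against 63.2, 62.0, 82.4 and 48.9 CPM. Marker-dense cells are a part of the same cells, down to 4 in uninjured replicate 1. The groups did not overlap there for either gene, which is a description without a test. The share of all genes without overlap in that class is not given. The secreted matrix gene adamtsl7 had 101, 31.7 and 114 CPM at 3 d.p.i. and no UMI in 902102 UMIs of uninjured cells, which is at least 29.1-fold higher against a floor of 3 UMIs over the uninjured samples. Its marker-dense level was 0 to 46.1 CPM at 3 d.p.i. The other genes of this group were nmt1a (log2 3.85), taf15 (3.47), atp5md (2.51) and rpz5, with 714, 233 and 617 CPM at 3 d.p.i. against 21.1, 46.5, 71.7 and 58.7 CPM.

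The genes lower at 3 d.p.i. with the smallest adjusted p included a clock-related transcription factor and a tubulin-binding protein. The gene hlfa had 14.9, 8.64 and 10.2 CPM at 3 d.p.i. and 84.3, 109, 118 and 88.1 CPM in uninjured samples (log2 −3.14 ± 0.45, adjusted p = 0.00328), and 18.0 to 18.5 CPM against 99.3 to 128 CPM in marker-dense cells. The tubulin-binding gene tppp3 had 3.88, 20.2 and 14.8 CPM against 84.3, 434, 194 and 143 CPM (log2 −3.98 ± 0.67), but its marker-dense samples overlapped, at 42.8 to 148 CPM and 99.3 to 512 CPM. The gene tuft1a had 19.4, 14.4 and 21.3 CPM against 400, 217, 215 and 164 CPM (log2 −3.62), and its marker-dense samples overlapped as well. Also lower were stk35 (log2 −2.99), the receptor gene tnfrsf19 (−3.97), ppfibp1a (−2.66) and the spectrin gene sptbn1 (−2.20).

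The matrix and growth factor lists had higher calls and no lower ones at 3 d.p.i., where 8.37% of all genes tested were higher and 4.43% lower. Of 30 fibrillar collagen and matrix genes, 5 were higher (col1a1a, col5a2a, col12a1a, fn1a and fbn2b) and 0 lower, with a median log2 difference of 0.79 against 0.14 over all genes. The collagen gene col5a2a had 775, 577 and 734 CPM at 3 d.p.i. and 21.1, 31.0, 75.2 and 68.5 CPM in uninjured samples (log2 3.59, adjusted p = 0.00736), with 229 to 406 CPM in marker-dense cells at 3 d.p.i. and 0 to 91.1 CPM in those of uninjured samples. Summed over the 36 listed matrix genes, mural-marker cells had a median of 14207 CPM at 3 d.p.i. against 4543 CPM in uninjured samples, while marker-dense cells had 5388 against 4324 CPM. The 3 d.p.i. sum was thus far lower in the marker-dense cells than over all mural-marker cells, and epicardial cells had medians of 35341 CPM at 3 d.p.i. and 12520 CPM in uninjured samples. The part of RNA from other cells in these calls was not tested. Of 19 growth factor and chemokine genes, 5 were higher (cxcl8a, aldh1a2, tgfb1a, tgfb3 and mdka) and 0 lower. The retinoic acid synthesis gene aldh1a2 had 1280, 128 and 837 CPM against 0, 0, 21.5 and 15.7 CPM (log2 5.61 ± 1.07, adjusted p = 0.0107), and endothelial cells had means of 523 CPM at 3 d.p.i. and 111 CPM in uninjured samples. The gene is also a marker of activated epicardium and endocardium, and the part of such RNA in its level was not tested. Of 15 basement membrane genes, 3 were higher (lamb1a, nid2a and agrn) and 1 lower, col4a2, at 63.3, 137 and 56.5 CPM against 1664, 1147, 355 and 362 CPM (log2 −3.16 ± 0.64, adjusted p = 0.011).

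The pericyte, Notch and endothelial lists each had 2 genes called at 3 d.p.i., of 14, 16 and 15 tested. Of all genes tested, 12.8% were called there, 4.43% lower and 8.37% higher. In the pericyte list 1 of 14 genes was lower, epas1a, a hypoxia-inducible factor, at 3.88, 28.8 and 4.16 CPM against 253, 186, 125 and 72.4 CPM (log2 −3.60 ± 0.86, adjusted p = 0.0189), and 1 was higher, foxc1a. In marker-dense cells epas1a had 23.1 to 61.2 CPM at 3 d.p.i. and 101 to 298 CPM in uninjured samples. In the Notch list 2 of 16 genes were lower, dll4 and mfng, and 0 higher. The level of dll4 was 74.3, 47.5 and 63.4 CPM against 274, 202, 115 and 157 CPM (log2 −1.48, adjusted p = 0.0478). In the endothelial list 2 of 15 were lower, kdrl and plvapa, with kdrl at 116, 96.5 and 106 CPM against 653, 465, 158 and 184 CPM (log2 −1.59, adjusted p = 0.0492). Of 27 immediate-early and stress genes, 4 were lower (klf2a, hsp70l, hsp70.1 and hsp70.2) and 0 higher. Of 8 interferon-stimulated genes tested, 1 was higher (elof1) and 0 lower, with a median log2 difference of 0.54 against 0.14 over all genes. No gene of the cardiomyocyte, leukocyte, erythroid or thrombocyte lists was called in any of the 3 time contrasts by edgeR. Their summed levels nevertheless varied, with leukocyte sums of 896 to 1685 CPM in uninjured samples, 804 to 1773 in 3 d.p.i. samples and 967 to 2652 CPM in those of 14 d.p.i., and cardiomyocyte sums of 675 to 1706, 1139 to 4873 and 653 to 13974 CPM in the same order. Erythroid sums were 1.96 to 2930, 135 to 993 and 71.8 to 36090 CPM and thrombocyte sums 141 to 1180, 119 to 487 and 142 to 1295 CPM, again in that order.

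**Figure D4:**
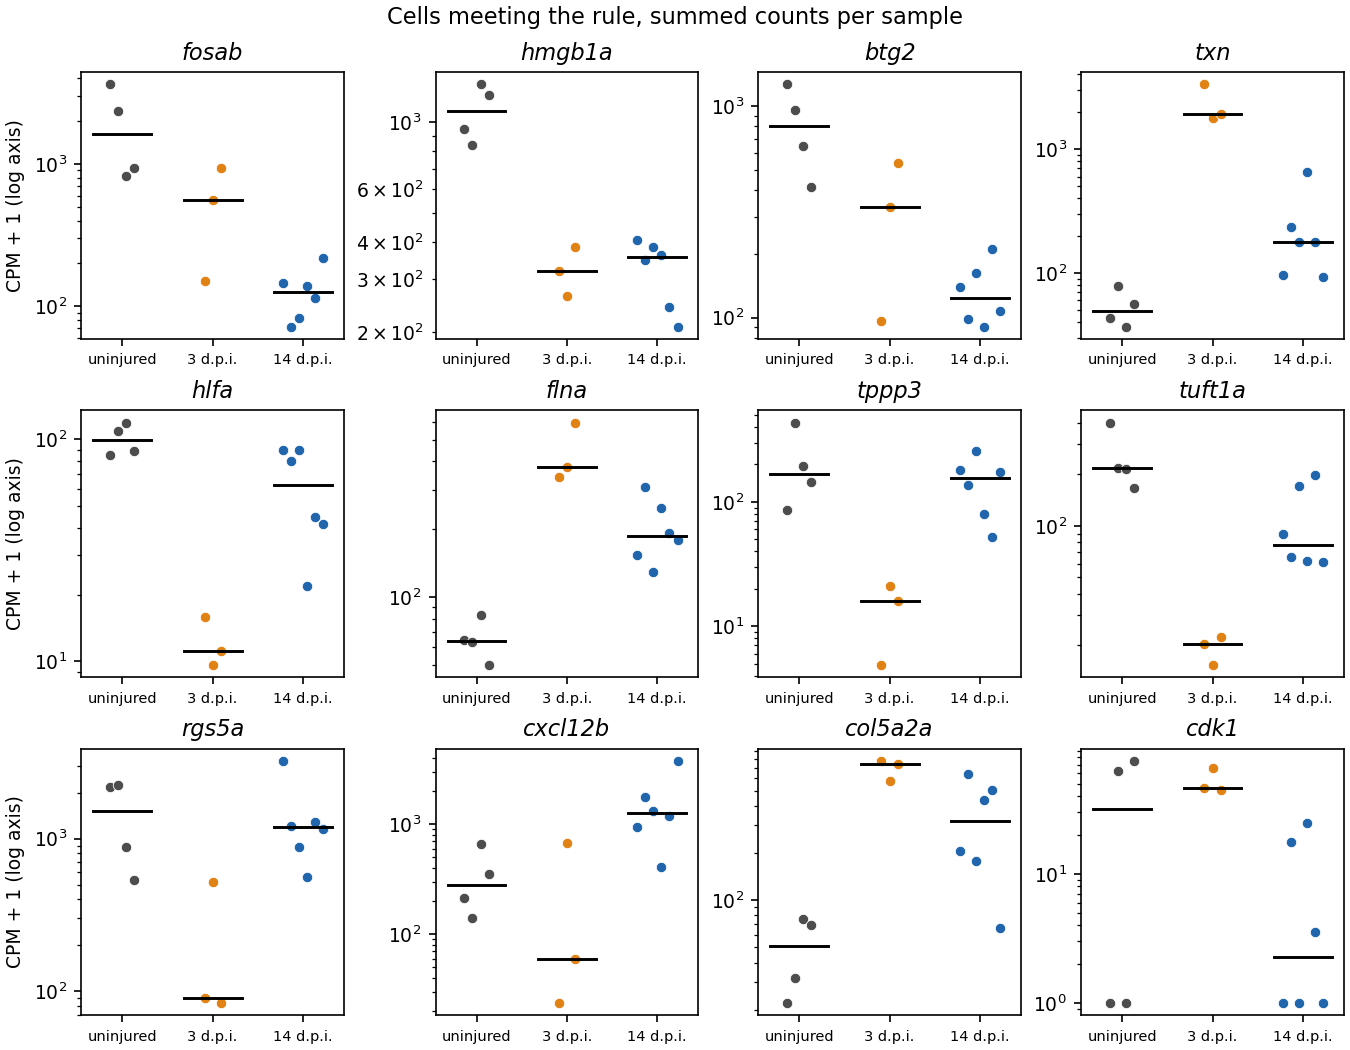
Levels of 12 genes in mural-marker cells by time point (uninjured, 3 d.p.i., 14 d.p.i.), each point 1 sample and each bar the median of the group. The y axes are CPM + 1 on log scales that differ between panels; rgs5a is a rule gene, and cxcl12b and cdk1 were not called in any time contrast. All 6 samples at 14 d.p.i. lie below all 4 uninjured samples for fosab, hmgb1a and btg2, and txn has 1780 to 3324 CPM at 3 d.p.i.

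Between 14 and 3 d.p.i. 785 genes differed (12.2%), 321 higher (5%) and 464 lower (7.23%) at 14 d.p.i. This contrast shares its 3 d.p.i. samples with the one before, so genes called in both are given side by side and not as 2 findings. Among the genes higher at 14 d.p.i. were hlfa (log2 2.28), tppp3 (3.39) and tuft1a (2.50), and among those lower were adamtsl7 and nmt1a (−2.25), each in the direction opposite to its 3 d.p.i. difference from uninjured samples. The gene adamtsl7 had 426 UMIs at 3 d.p.i. and 1 UMI at 14 d.p.i., in replicate 4. The peroxidase gene prdx1 was lower (−3.50), as were gale (−3.05), rpn1 (−2.12), the proteasome subunit psmd12 (−1.95) and mvp, a part of the vault particle. The count of calls was 91 (13 higher, 78 lower) without 3 d.p.i. replicate 1, 94 (12 higher, 82 lower) without 3 d.p.i. replicate 3, 457 without 14 d.p.i. replicate 1, 407 without 14 d.p.i. replicate 3 and 1256 without 14 d.p.i. replicate 4. Without 3 d.p.i. replicate 2 there were 738 calls, with the larger share higher (395 higher, 343 lower). Without uninjured replicates 1 and 2 there were 986 calls among 7176 genes tested, 410 higher and 576 lower.

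Among the increases at 14 d.p.i. over 3 d.p.i. with the smallest adjusted p were tbx3a and adra1bb. The T-box gene tbx3a had 7.69, 30.0 and 65.8 CPM (lowest, median, highest) at 14 d.p.i. from 88 UMIs, against 0.646, 1.44 and 0.463 CPM at 3 d.p.i. from 3 UMIs (edgeR adjusted p = 0.00716). The alpha-1 adrenergic receptor gene adra1bb had 2.97, 36.7 and 55.7 CPM at 14 d.p.i. and no UMI in any 3 d.p.i. sample, which is at least 32.6-fold higher against a floor of 3 UMIs over the 3 d.p.i. samples. In uninjured samples adra1bb had 42.1, 0, 7.17 and 15.7 CPM, and the mean in endothelial cells was 0.200 CPM at 14 d.p.i. In marker-dense cells adra1bb had 10.4 to 80.8 CPM at 14 d.p.i. and 0 in all 3 samples at 3 d.p.i. The gene ndrg4 had 84.6, 143 and 227 CPM at 14 d.p.i. against 23.3, 44.6 and 32.9 CPM (log2 2.02). The genes top1 (2.63) and tob1b (1.86) were also higher.

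Some cell cycle and immediate-early genes were called lower at 14 d.p.i. than at 3 d.p.i., as were 7.23% of all genes tested. Of 26 cell cycle genes, 8 were lower (ccna2, ccnb1, plk1, birc5a, cdc20, tubb2b, hmgb2a and rrm1) and 1 higher, the cyclin gene ccnd2a, with a median of −2.06 against −0.04 over all genes. Of 27 immediate-early genes, 9 were lower (fosab, fosb, fosl1a, junba, junbb, egr1, ier2a, dusp2 and socs3a) and 0 higher (median −0.99). Listed vascular genes called higher at 14 d.p.i. than at 3 d.p.i. (5% of all genes tested) included epas1a (log2 3.64, adjusted p = 0.0162), dll4 (1.96, 0.0159), jag2b (1.78), pdgfbb (3.35, 0.0345), kdrl (2.09, 0.0169), flt1 (2.49) and plvapa (3.77), as was the basement membrane gene col4a2 (2.44, 0.0196). Of these, epas1a, dll4, kdrl, plvapa and col4a2 were also called lower at 3 d.p.i. against uninjured samples, in a contrast that uses the same 3 d.p.i. samples, while jag2b, pdgfbb and flt1 were not. Of the smooth muscle list, smtnb and cavin1b were higher and 0 of 21 lower. The summed level of the 22 listed pericyte genes was 1162 to 3130 CPM at 14 d.p.i. (median 2480) and 750 to 2033 CPM at 3 d.p.i. (median 944).

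A last comparison asked whether the 14 d.p.i. difference from uninjured samples differed between mural-marker and endothelial cells. The interaction term called 1 of 12428 genes (0.00805%), clmn, with a log2 difference of 5.95 ± 0.88 (edgeR adjusted p = 0.011), while 1150 genes had an unadjusted p under 0.05 and DESeq2 called 30. The gene clmn, which encodes the actin-binding protein calmin, had 6.24, 10.5 and 40.5 CPM (lowest, median, highest) in mural-marker cells at 14 d.p.i. and 0, 0, 3.58 and 7.83 CPM in uninjured samples, from 37 and 5 UMIs. Endothelial cells averaged 0.435 CPM of clmn at 14 d.p.i., against 9.71 CPM in uninjured samples. The call was lost without uninjured replicate 3 or 4 and with DESeq2, with an adjusted p of up to 0.384. Without uninjured replicates 1 and 2 the interaction called 113 genes, 14 higher and 99 lower, and without uninjured replicate 4 its only call was a lower one. The next genes did not pass (adjusted p = 0.0647): slc8a1a, the sodium-calcium exchanger (4.59), adamtsl3 (4.17), sorbs2a (3.90) and col5a2a (2.57). The cardiomyocyte list had 0 of 14 genes called in the interaction and a median of 4.43, against 0.29 over all genes. The part of cardiomyocyte RNA in these differences was not tested. Endothelial means of genes called in mural-marker cells were lower at 14 d.p.i. as well, and hmgb1a had endothelial means of 399.9 CPM at 14 d.p.i. and 1233 CPM in uninjured samples.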

How the data were processed

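Libraries were 10x Genomics Chromium single-cell libraries of dissociated ventricles. The authors deposited UMI counts per gene and barcode, made with Cell Ranger (3.1.0 for uninjured replicates 1 and 2, with 32520 gene rows, and 5.0.0 for the other samples, with 36351 rows in zebrafish) on GRCz11. Both gene lists hold mitochondrial entries that the mt- limit does not count. A limit of 15% on all mitochondrial entries was tried after seeing the data. Passing cells then fell from 1295 to 787 in uninjured replicate 1 and from 2201 to 395 in uninjured replicate 2. Mural-marker cells in 14 d.p.i. replicate 1 fell from 63 to 13. The share then averaged 0.662% in uninjured samples, 1.26% in 3 d.p.i. samples and 2.05% in those of 14 d.p.i. Levels and tests therefore used the 28107 symbols, outside mitochondrial entries, that all 13 zebrafish gene lists share.

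Counts were summed per sample and class (at least 5 cells) and tested with edgeR 4.0.16 (glmQLFit, robust, TMM, filterByExpr; limma 3.58.1, R 4.3.3), with Benjamini-Hochberg adjustment at 0.05. Shares were tested with two-sided exact permutation tests (scipy 1.17.1, Python 3.11.15). DESeq2 1.42.0, RLE scaling, no low-count filter, other cell filters, leaving out each sample and a replicate block were alternatives. Doublets were called with scanpy 1.11.5 and not removed.

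The members, gene lists and tests were chosen with earlier results of these data known. Genes named against endothelial and epicardial cells were the 12 largest increases and 6 largest decreases among calls that moved the same way in all samples with a mean of at least 50 CPM. Over time they were the 8 genes in each direction with the smallest adjusted p, and from some of the lists up to 6 genes of highest level. Clone names were counted and not named, 2 genes that the rule picks are not reported here, and other genes were chosen after their values were seen. Fold changes against a class with no UMI use a floor of 3 UMIs over the group, and floors cover counting error only.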

Additional observations from a re-analysis of the deposited data

Results flagged for a closer look

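Of 66 gene and time point groups of mural-marker samples checked, 4 had 1 sample far from the rest, where chance gives about 1 in 20. The level of rgs5a in 14 d.p.i. replicate 1 was 3247 CPM, against 562 to 1292 CPM in the other 5. The level of txn in 14 d.p.i. replicate 4 was 652 CPM, against 91.1 to 235 CPM, and adamtsl7 in that replicate was 0.594 CPM (1 UMI), against 0 in the others. The level of stk35 in 14 d.p.i. replicate 3 was 37.8 CPM, against 10.4 to 20.5 CPM.

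The 14 d.p.i. difference of clmn was 5.95 higher on the log2 scale in mural-marker than in endothelial cells by the interaction test. In medaka libraries, which entered no comparison, 4 of 33999 cells met the rule by symbol, with an mt- limit that could not act. Of these cells, 2 were in uninjured replicate 3 and 1 each in a 3 d.p.i. and a 14 d.p.i. sample.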

How the results depend on the processing

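Leaving out 1 sample at a time, the 14 d.p.i. share exceeded the uninjured one by 0.974 to 1.28 percentage points, the 3 d.p.i. share exceeded the uninjured one by 0.364 to 0.691 and the 14 d.p.i. share exceeded the 3 d.p.i. one by 0.416 to 0.763. The 14 d.p.i. difference from uninjured samples was 1.01 (exact permutation adjusted p = 0.6) with 2 or more markers, 0.270 (0.171) with 4 or more, and 1.09 (0.2) without uninjured replicates 1 and 2. In the last setting 6 against 2 samples cannot give a p under 0.05, whatever the shares. The difference between 14 and 3 d.p.i. was 0.477 with cells thinned to 1000 UMIs, 0.655 with thinning outside mitochondrial entries (chosen after seeing the data), −0.229 without blood cells and −0.206 with 2 or more markers; the cause was not tested.

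Without 1 sample, calls numbered 1881 to 2363 against endothelial cells, 1666 to 2237 against epicardial cells, 0 to 14 at 14 d.p.i. against uninjured, 249 to 949 at 3 d.p.i. against uninjured, 91 to 1256 at 14 against 3 d.p.i. and 0 to 7 for the interaction. Without a low-count filter, which tests more genes, they numbered 4031 against endothelial and 3345 against epicardial cells, 40 at 14 d.p.i. against uninjured and 233 for the interaction. At 14 d.p.i. against uninjured, DESeq2 called 112, the mt- limit of 40% 5, the fit without uninjured replicates 1 and 2 25, and that without the 3 d.p.i. samples (chosen after seeing the data) 14. For the interaction, DESeq2 called 30, RLE scaling 6 and the fit without uninjured replicates 1 and 2 113 (14 higher, 99 lower). DESeq2 called 51.1% of its 14 against 3 d.p.i. genes higher, against 40.9% in edgeR. No named gene changed direction. Of the named genes over time, txn and clmn lost their call with DESeq2, ndrg4 with the 40% limit and without 3 d.p.i. replicate 1 or 3, and tuft1a (14 against 3 d.p.i.) without 3 d.p.i. replicate 1.

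Samples with the same replicate number were at most weakly correlated (10 pairs, r from −0.0702 to 0.151, 2 over 0.1). Such values cannot show whether the samples were paired. With a replicate block, 1, 708 and 457 genes were called at 14 d.p.i. against uninjured, 3 d.p.i. against uninjured and 14 against 3 d.p.i. The 1 gene called with the block at 14 d.p.i. against uninjured was higher and was none of the 3 called without it. Uninjured replicates 1 and 2 limit low genes, since 47894 and 65031 UMIs were summed there.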
